A study of Homo sapiens with 4 samples.

Results

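The genes described here are the long noncoding genes named LINC (long intergenic non-protein-coding RNA) or SNHG (small nucleolar RNA host gene) that were measurable in a human liver cancer cell line. They are the rows of the deposited expression table with a name made of LINC or SNHG and a number, a biotype other than protein_coding and sense_intronic, and a mean of at least 1 TPM over the 4 libraries. TPM is a transcript abundance corrected for gene length and scaled to a fixed total per library. The members were chosen by these measured levels, averaged over both groups, and not by the difference between them. This rule found 151 of the 33478 rows, namely 142 LINC and 9 SNHG genes. Of these, 126 are annotated lincRNA and 25 antisense, and they lie on 23 chromosomes, with 15 on chromosome 1 and 14 on chromosome 7. The level was part of the rule, so that these genes are measurable is no finding. The members just inside the threshold were LINC00261 at 1.01, LINC01529 at 1.02 and LINC00677 at 1.02 TPM (means), and the names just outside it were LINC00868 at 0.997, LINC01301 at 0.985 and LINC00444 at 0.974 TPM. The table holds 877 such names with an allowed biotype at any level, and 8 names were set aside for their biotype.

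RNA was sequenced from MHCC-97H cells, an established human hepatocellular carcinoma line. The titles name 2 conditions, each with 2 libraries: cells with a control short hairpin RNA (shRNA), and cells with an shRNA against UCK2, the uridine-cytidine kinase that starts pyrimidine salvage. No dose, time or other agent is given for either group, and the letter B in the titles of the UCK2 shRNA libraries is not explained, so whether these libraries rest on 1 hairpin or several was not analysed here. No label states that the 2 libraries of a condition were separate cultures. Each p-value therefore measures only the spread between these libraries, which may be technical. The descriptions also disagree with the titles at 2 places. Control replicate 2 carries another cell line number there, and UCK3 is written for UCK2 shRNA replicate 2.

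UCK2 itself did not separate the groups. It stood at 135.7 and 93.6 TPM in control replicates 1 and 2 against 120.5 and 67.8 TPM with UCK2 shRNA. The groups overlapped, and the log2 difference (UCK2 shRNA minus control, on log2(TPM + 1), as everywhere below) was -0.31 ± 0.30 (SE), with a 95% interval of -1.02 to 0.39 and an adjusted p of 0.640 by limma. The groups are therefore called here the libraries labelled control and the libraries labelled UCK2 shRNA. The liver markers ALB (albumin), at 18.6 to 29.5 TPM, HNF4A, at 23.1 to 34.8 TPM, and KRT8 and KRT18 were present in every library. Of the 13 listed, 12 had a mean of at least 1 TPM, and APOB stayed below 1 TPM in each library. APOA1, FGB and TTR were low, at 0.25 to 2.32, 1.97 to 6.18 and 4.12 to 5.52 TPM. Because the protocol text mentions retinas, 11 retina markers were read, and together they summed to 2.86 to 3.80 TPM per library. In a bulk sample, fewer cells with a transcript and less transcript per cell cannot be told apart.

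The 4 columns do not carry the same total over the rows used here. The controls sum to 850379 and 850534 TPM, and the UCK2 shRNA libraries to 676811 and 643063 TPM. Of the 14038 genes with a mean of at least 1 TPM, 74.7% measured lower in the UCK2 shRNA libraries, with a median log2 difference of -0.22. Values are therefore also given after scaling each library by the median of its ratios to the gene-wise mean (median-ratio scaling), which puts the median of all genes at -0.0062. A negative deposited difference near -0.22 is one that most genes of the table share. No gene of the table passed an adjusted p of 0.05 by limma as deposited (0.0% in each direction, the smallest being 0.151). Unadjusted, 194 genes were higher and 1962 lower at p under 0.05.

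An SNHG gene is a host: its transcript is spliced, small nucleolar RNAs (snoRNAs) or small Cajal body RNAs (scaRNAs) are cut from its introns, and the spliced remainder is often short-lived. Box C/D snoRNAs guide ribose methylation and box H/ACA snoRNAs guide pseudouridylation, of ribosomal RNA in the nucleolus for most, while scaRNAs guide both on spliceosomal RNAs in Cajal bodies. Many hosts start in a terminal oligopyrimidine tract, an unbroken stretch of C and T at the first transcribed base, which ties their use to translation. LINC is a catalogue name for intergenic noncoding transcripts and implies no shared function, although several such genes have been studied in liver and other tumours.

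All 9 SNHG members hold a snoRNA or scaRNA gene on their own strand in GENCODE 29, and 0 of the 142 LINC members do. The name SNHG stands for a host gene, so this split follows from the names and is no finding. The SNHG members hold 13 named small RNA genes: 8 of the box H/ACA (SNORA) kind, 2 of the box C/D (SNORD) kind and 3 scaRNAs. Of the 13, 4 lie in introns of every transcript and 9 within an exon of at least 1 annotated transcript. SNHG12 hosts SNORD99, SNORA61, SNORA44 and SNORA16A, SNHG7 hosts SNORA17A and SNORA17B, and SNHG8, SNHG9, SNHG15 and SNHG19 host SNORA24, SNORA78, SNORA9 and SNORD60. The remaining 3 host scaRNAs: SNHG10 holds SCARNA13, SNHG21 holds SCARNA15 and SNHG22 holds SCARNA17. Among the LINC members, LINC00969 and LINC01057 each hold a miRNA gene in an intron, MIR570 and MIR378G. SNHG genes were also more compact, with a median span of 3939 bases against 15491 for LINC genes, and a median longest transcript of 1531 against 2094.5 bases.

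The first bases of the SNHG genes are shown because many hosts start in a terminal oligopyrimidine tract. RefSeq promoter entries (GRCh38.p14) were found for 107 of the 151 members, including 7 of the 9 SNHG genes, with none for SNHG9 and SNHG15. Each line gives 20 bases before the annotated start and 50 bases from it on, read 5′ to 3′ on the gene's strand. Capitals mark the unbroken run of C and T that covers the first transcribed base, where there is one of at least 5 bases.
SNHG19: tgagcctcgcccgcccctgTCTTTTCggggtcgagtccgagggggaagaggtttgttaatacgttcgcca
SNHG8: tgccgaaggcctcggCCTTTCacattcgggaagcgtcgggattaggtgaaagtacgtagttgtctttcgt
SNHG7: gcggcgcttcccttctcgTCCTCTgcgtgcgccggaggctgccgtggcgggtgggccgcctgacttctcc
SNHG12: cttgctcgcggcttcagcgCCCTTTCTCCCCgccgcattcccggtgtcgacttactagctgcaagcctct
SNHG10: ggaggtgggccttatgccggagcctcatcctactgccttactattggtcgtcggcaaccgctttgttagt
SNHG21: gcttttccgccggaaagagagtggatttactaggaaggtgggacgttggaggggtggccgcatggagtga
SNHG22: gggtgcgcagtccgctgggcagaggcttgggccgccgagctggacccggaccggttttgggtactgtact

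These windows lie at chr16:2155309-2155378 (minus strand) for SNHG19, chr4:118278742-118278811 (plus) for SNHG8, chr9:136728135-136728204 (minus) for SNHG7 and chr1:28581824-28581893 (minus) for SNHG12. Those of SNHG10, SNHG21 and SNHG22 lie at chr14:95534823-95534892 (minus), chr15:82750544-82750613 (plus) and chr18:49814003-49814072 (plus). The run was 12 bases long in SNHG12, 7 in SNHG19 and 6 each in SNHG8 and SNHG7, and SNHG10, SNHG21 and SNHG22, the 3 scaRNA hosts, had none of 5 bases or more. A run of at least 5 bases over the start was present in 4 of these 7 promoters, in 9 of 100 LINC promoters and in 9.60% of all 35116 promoters of the RefSeq table. The RefSeq start lies 53 bases from the start in the deposited table for SNHG8 and 1110 bases from it for SNHG12, so the run depends on which start is taken. For LINC00674, with a run of 10 bases, the RefSeq start lies 25111 bases from the deposited one. The run counts bases on both sides of the start. In SNHG8 the first transcribed base is the last base of the run, so the rest of the run lies before the start. A run of letters is a description of the window, and the data here do not measure start sites.

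The SNHG genes were the more abundant of the 2 families. Their median mean level was 18.7 TPM, against 2.81 TPM for LINC genes and 11.8 TPM for all genes with a mean of at least 1 TPM. Summed over the 9 genes, SNHG transcripts made up 399.9 and 322.8 TPM of the controls against 271.7 and 300.2 TPM of the UCK2 shRNA libraries. As deposited, both sums of the UCK2 shRNA libraries lay below both control sums, and after median-ratio scaling they overlapped, at 337.2 and 321.8 TPM in control against 295.9 and 323.5 TPM. Of the 9 genes, 8 measured lower in the libraries labelled UCK2 shRNA, with a family median of -0.31 beside -0.22 for all genes. After median-ratio scaling the SNHG median was -0.10 beside -0.0062, and 7 genes were below 0. The distance to the median of the table was not tested.

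**Figure D1:**
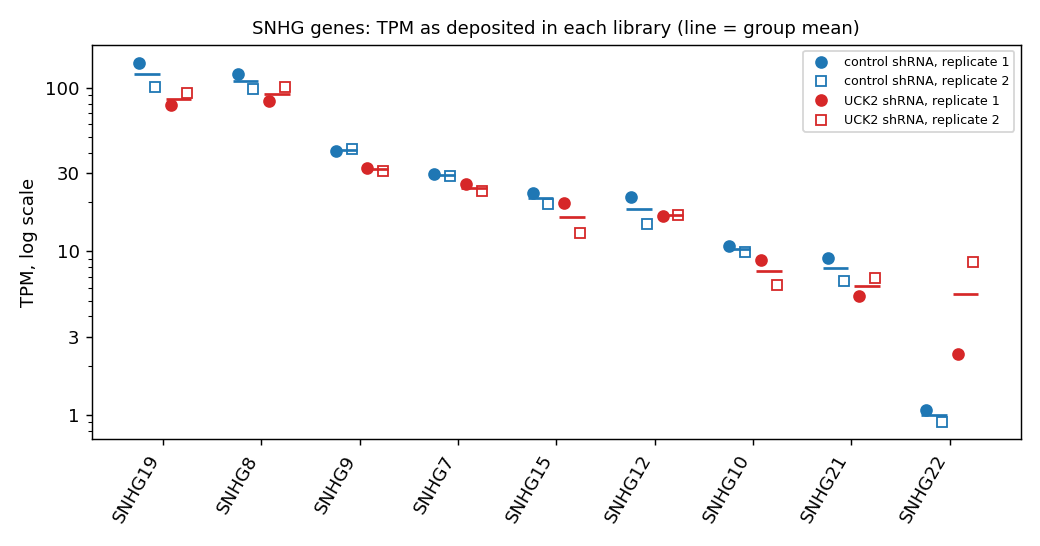
Deposited TPM (log axis) of the 9 SNHG genes in each library, with control replicates in blue, UCK2 shRNA replicates in red and a line at each group mean. SNHG19 lies between 78.2 and 142.5 TPM and SNHG8 between 82.6 and 121.2 TPM, and SNHG22 is the gene whose UCK2 shRNA libraries lie above both controls.

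SNHG19, host of SNORD60, was the most abundant, at chr16:2154797-2155358 on the minus strand (hg38), a gene of 562 bases. It stood at 142.5 and 101.6 TPM in control replicates 1 and 2 against 78.2 and 92.9 TPM with UCK2 shRNA. Both UCK2 shRNA values lay below both controls, although the controls themselves were farther apart than the lower control was from the higher UCK2 shRNA library. The log2 difference was -0.49 ± 0.21 (SE), with an unadjusted p of 0.0486 and an adjusted p of 0.323 by limma, and it was -0.25 after scaling.

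SNHG8, host of SNORA24, was nearly as abundant but did not separate the groups. It measured 121.2 and 98.3 TPM in the controls against 82.6 and 101.5 TPM in the UCK2 shRNA libraries, so UCK2 shRNA replicate 2 lay between the controls. Its log2 difference of -0.25 (adjusted p = 0.540, limma) came to -0.012 after scaling.

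SNHG9, host of SNORA78, had replicates that lay close together. It measured 41.2 and 42.4 TPM in the controls against 32.4 and 31.0 TPM in the UCK2 shRNA libraries. The groups did not overlap, and the gap between them was several times the spread within either. The log2 difference was -0.39 ± 0.17 (SE), with an adjusted p of 0.337 by limma, and it was -0.15 after scaling. The scaled groups overlapped.

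SNHG7, host of SNORA17A and SNORA17B, measured 29.74 and 28.97 TPM in the controls against 25.7 and 23.4 TPM in the UCK2 shRNA libraries. SNHG10, host of SCARNA13, measured 10.8 and 9.87 TPM in the controls against 8.88 and 6.19 TPM in the UCK2 shRNA libraries. The groups did not overlap for either gene as deposited, and overlapped for both after scaling. Their log2 differences were -0.25 (adjusted p = 0.535) and -0.42 (adjusted p = 0.458, limma), and -0.018 and -0.21 after scaling.

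The groups overlapped for the other 3 hosts with values below 0. SNHG15 measured 22.8 and 19.3 TPM in the controls against 19.7 and 12.9 TPM in the UCK2 shRNA libraries, with UCK2 shRNA replicate 2 the low one. SNHG12, the host of 4 snoRNA genes, measured 21.4 TPM in control replicate 1 and 14.8 to 16.8 TPM in the other 3 libraries. SNHG21 measured 9.16 TPM in control replicate 1 and 5.36 to 6.88 TPM in the others. As deposited, control replicate 1 was thus the high library for SNHG12 and SNHG21. After scaling SNHG12 was at 18.0 TPM in control replicate 1, 14.7 TPM in control replicate 2 and 17.9 and 18.1 TPM with UCK2 shRNA, so control replicate 2 was then the low library. Their log2 differences were -0.38, -0.092 and -0.31, none with an adjusted p below 0.497 (limma), and -0.15, 0.14 and -0.10 after scaling. Of the 50-base words in the SNHG21 exons, 55.2% also occur in an overlapping gene, AC105339.2, so reads of these 2 genes could have been split.

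SNHG22 was the exception among the hosts. It stood at 1.07 and 0.911 TPM in control replicates 1 and 2 against 2.36 and 8.58 TPM with UCK2 shRNA. Both UCK2 shRNA libraries lay above both controls, but they lay farther from each other than replicate 1 lay from the controls. The log2 difference was 1.51 ± 0.50 (SE), with a 95% interval of 0.34 to 2.68, an unadjusted p of 0.0183 and an adjusted p of 0.294 by limma. After scaling it was 1.66 (adjusted p = 0.572), and with 1 library left out at a time it ranged from 0.75 without UCK2 shRNA replicate 2 to 2.27 without UCK2 shRNA replicate 1. Its level in control was near the threshold of the rule, which it passed through the UCK2 shRNA libraries. Without SNHG22, the median of the other 8 hosts was -0.34 as deposited and -0.12 after scaling.

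SNHG22 spans chr18:49814023-49851059 on the plus strand, and its named scaRNA, SCARNA17, begins 110 bases after the gene's start, at chr18:49814133-49814276. A further scaRNA entry without a gene name, RF00283, lies within an exon at chr18:49814361-49814443. The annotation places SCARNA17 inside an exon, so that its letters are also letters of the host transcript, and the TPM values cannot divide reads of the small RNA from reads of the host. The sequence of SCARNA17 is shown for that reason, from GENCODE 29 on GRCh38, with the letters CTGA in capitals, the sequence of a D box. The letters TGATGA, also searched for, do not occur in it.
SCARNA17: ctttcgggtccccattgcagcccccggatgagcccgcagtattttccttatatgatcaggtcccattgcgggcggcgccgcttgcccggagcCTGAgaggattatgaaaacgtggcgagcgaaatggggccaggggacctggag

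Several hosts begin beside a protein-coding gene on the opposite strand. SNHG22 starts 63 bases from ACAA2, a mitochondrial thiolase of fatty acid oxidation, and overlaps MYO5B, a myosin motor. ACAA2 measured 55.2 and 47.2 TPM in the controls against 44.4 and 38.4 TPM in the UCK2 shRNA libraries, a log2 difference of -0.30 (-0.064 after scaling). MYO5B measured -0.40 (-0.17 after scaling), so both neighbours lay below 0 where SNHG22 lay above it. SNHG9 starts 99 bases from RPS2, a protein of the small ribosomal subunit and itself a snoRNA host, which measured 1930 and 2507 TPM in the controls against 1584 and 1257 TPM in the UCK2 shRNA libraries. RPS2 differed by -0.64 (-0.40 after scaling, adjusted p = 0.294 as deposited, limma). SNHG19 starts 340 bases from TRAF7, an E3 ubiquitin ligase, which measured 104.0 and 105.5 TPM in the controls against 72.8 and 57.0 TPM in the UCK2 shRNA libraries. TRAF7 differed by -0.69 (-0.46 after scaling, adjusted p = 0.294 as deposited, limma), and its direction was that of SNHG19. SNHG10 overlaps GLRX5, a mitochondrial glutaredoxin of iron-sulphur cluster assembly, which differed by -0.54 (-0.30 after scaling). The sources name no strand setting for the counting, so overlapping genes on opposite strands may share reads.

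Over all members, 22 pairs with a protein-coding gene on the opposite strand had starts within 2000 bases and both genes above the threshold. The coding partner measured below 0 in 19 of the 22 pairs and the LINC or SNHG gene in 13. Over the table, 79.6% of protein-coding genes and 65.6% of all members measured below 0. The medians were -0.27 for the partners and -0.058 for the noncoding members, and -0.053 and 0.12 after scaling. Scaling moved both medians by a like amount, and the noncoding member was above its partner in 14 of the 22 pairs after scaling. All protein-coding genes and all members had medians of -0.25 and -0.079, and of -0.027 and 0.092 after scaling. Whether the pairs differ from these was not tested.

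The genes that act with hosts were read as lists, without a test. Of the other noncoding hosts, 2 of 5 listed were above the threshold: ZFAS1, with 199.0 and 147.5 TPM in the controls against 162.4 and 190.2 TPM in the UCK2 shRNA libraries, and EPB41L4A-AS1, with 23.05 and 14.6 against 14.3 and 20.1 TPM. The groups overlapped for both as deposited, and their log2 differences were 0.036 and -0.11 (0.28 and 0.12 after scaling). Of 35 protein-coding snoRNA hosts, RPL10 among them, 32 measured below 0 with a median of -0.28 (-0.041 after scaling). At an unadjusted p under 0.05, 11 of the 35 were lower and 0 higher, where 14% and 1.38% of all genes were, or 19.7% and 0.342% of genes of at least 5 TPM. After scaling 0 of the 35 were lower and 0 higher, beside 1.42% and 3.97% of all genes. Of 16 proteins of snoRNA-protein particles, led by NHP2 and the methyltransferase FBL, 14 measured below 0 with a median of -0.37 (-0.13 after scaling). At an unadjusted p under 0.05, 4 of them were lower and 0 higher, and 0 in either direction after scaling, beside the same shares of all genes. None of these genes passed the adjusted threshold in limma.

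Decay factors were read because spliced host RNAs are commonly degraded by nonsense-mediated decay. The exosome, which trims and degrades RNA, was read beside them. Of 18 nonsense-mediated decay factors, 14 measured below 0, with a median of -0.31 (-0.074 after scaling), beside 79.6% of protein-coding genes below 0. At an unadjusted p under 0.05, 5 were lower and 0 higher, beside the same 14% and 1.38% of all genes. After scaling 0 were lower and 1 higher, beside 1.42% and 3.97% of all genes. The 1 higher was SMG1, the kinase of the pathway, at 0.68 (adjusted p = 0.900, limma). The 2 most abundant were EIF4A3 at -0.68 and RBM8A at -0.29, both of the exon junction complex. Of 20 exosome subunits and cofactors, 13 measured below 0, with a median of -0.16 (0.070 after scaling), beside the same share of protein-coding genes. At an unadjusted p under 0.05, 3 were lower and 0 higher, beside the same 14% and 1.38% of all genes. After scaling 0 were lower and 1 higher, beside the same 1.42% and 3.97% of all genes. The 1 higher was SKIV2L2, a helicase cofactor, at 0.78 (adjusted p = 0.894, limma). The most abundant were EXOSC4 at -0.68 and EXOSC3 at -0.38 as deposited. None passed the adjusted threshold in limma, and scaling brought the median of each of these lists of coding genes nearer to 0.

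The LINC genes were mostly scarce. Their levels ran from 1.01 to 136.4 TPM (means), 23 of the 142 reached 10 TPM, and the 15 most abundant held 57.0% of the LINC total. Together they summed to 1266 and 1041 TPM in the controls, and to 976 and 1127 TPM under UCK2 shRNA, so UCK2 shRNA replicate 2 lay between the controls. The LINC median was -0.062 (quartiles -0.25 and 0.13), beside -0.22 for all genes, and 91 of the 142 measured below 0. After scaling the median was 0.10 beside -0.0062, and 50 measured below 0, so the direction of the family turned with the scaling. With quantile normalization the LINC median was -0.053 beside -0.029 for all genes, so its place relative to the table also turned with the normalization.

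**Figure D2:**
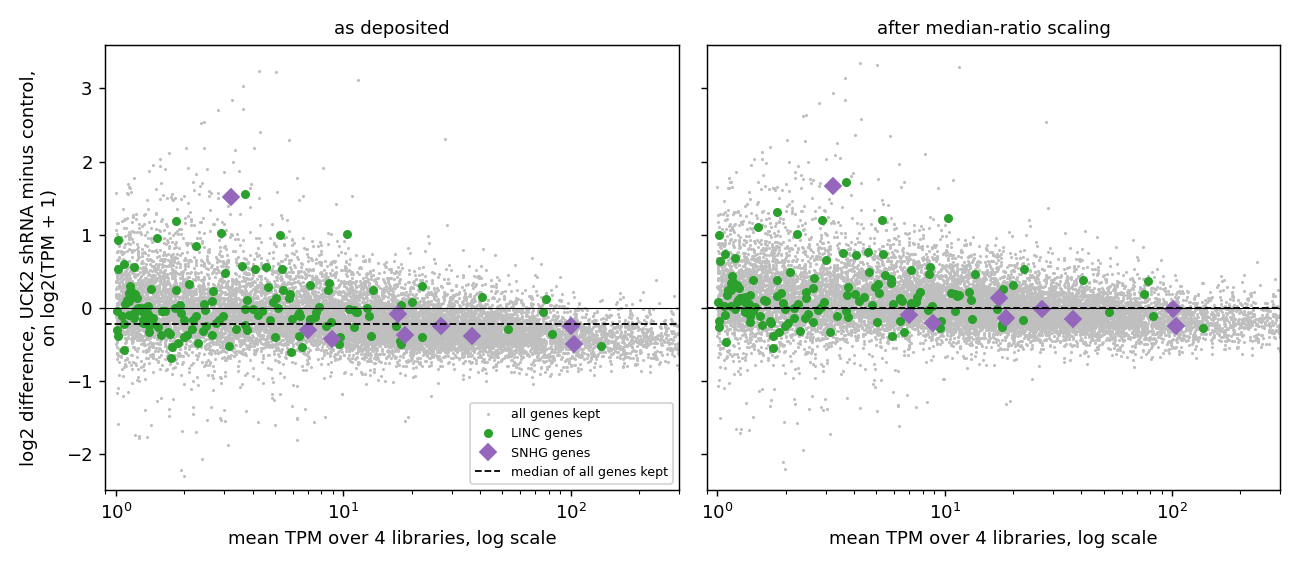
Log2 difference (UCK2 shRNA minus control, log2(TPM + 1)) against the mean TPM over 4 libraries (log axis), as deposited and after median-ratio scaling, for all genes with a mean of at least 1 TPM (grey), LINC genes (green) and SNHG genes (purple); the dashed line is the median of all genes, -0.22 as deposited and -0.0062 after scaling. The points spread more at low levels, and the LINC genes lie within the cloud of all genes.

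The level bears on that reading, because scarce genes of the whole table lay higher than abundant ones. All genes with a mean of at least 5 TPM had a median of -0.28 (-0.050 after scaling), and those under 5 TPM one of -0.036 (0.13 after scaling). LINC genes under 5 TPM had a median of -0.050 (0.090 after scaling), close to that of all genes at that level. The 51 LINC genes of at least 5 TPM had a median of -0.076 (0.13 after scaling), above that of all genes and of the 469 other noncoding genes at that level, which had -0.17 (0.045 after scaling). No test was made of these differences. The 20 antisense LINC genes had a median of -0.0021 (0.19 after scaling) and the 122 lincRNA ones -0.077 (0.091 after scaling).

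Counted against the table, members past any threshold were few. By limma, 0 of the 151 passed an adjusted p of 0.05, and 0.294 was the lowest value reached. Of the members, 99 measured below 0 and 52 above, beside 74.7% and 25.3% of all genes. Without adjustment, at p under 0.05, 4 members were higher (LINC00273, LINC00663, LINC01372 and SNHG22) and 3 lower (LINC00152, LINC00339 and SNHG19). That is 2.65% and 1.99% of the members, beside 1.38% and 14% of all genes tested. Of the 4 higher, LINC00663, LINC01372 and SNHG22 had control means of 0.731, 0.761 and 0.993 TPM and so passed the 1 TPM rule only through the libraries in which they were high, and the count is no support for a difference. The UCK2 shRNA libraries lay wholly above the controls in 12 members and wholly below them in 37, or 7.95% and 24.5%, beside 5.46% and 44.4% of all genes. Of the 2021 other noncoding genes, 51.7% measured below 0, and 5.79% were higher and 4.45% lower at an unadjusted p under 0.05 (limma). Their UCK2 shRNA libraries lay wholly above the controls in 17.2% and wholly below in 20.1%, or in 34.1% at 5 TPM or more. No test was made of these shares, and they move with the level. Under 5 TPM, where 92 of the members lie, 18.5% of members and 19.9% of all genes lay wholly below the controls, and at 5 TPM or more 33.9% and 55.5% did. Wholly above the controls lay 12% of members and 14% of all genes under 5 TPM, and 1.69% and 1.61% at 5 TPM or more. After scaling, 11 members were higher and 0 lower at an unadjusted p under 0.05, where 3.97% and 1.42% of all genes were, and 0 passed the adjusted threshold, as did 0.0641% of all genes. After scaling 35 members lay wholly above and 17 wholly below the controls, beside 16% and 15.5% of all genes. These scaled shares also moved with the level. Wholly above lay 21.7% of members and 25.9% of all genes under 5 TPM, and 25.4% and 11.6% at 5 TPM or more. Wholly below lay 9.78% and 9.09% under 5 TPM, and 13.6% and 18.4% at 5 TPM or more. Higher at an unadjusted p under 0.05 (limma) were 9.78% and 7.72% under 5 TPM, and 3.39% and 2.28% at 5 TPM or more. Scaling turned 42 members from below to above 0, which left 57 below and 94 above, beside 50.8% and 49.2% of all genes. Below 0 after scaling were 35.9% of members and 33.9% of all genes under 5 TPM, and 40.7% and 58.4% at 5 TPM or more. Of the other noncoding genes, 35.1% were below 0 after scaling, and 11.7% were higher and 2.67% lower at an unadjusted p under 0.05 (limma). Of the members, 9 had a control mean below the 1 TPM of the rule and 6 a mean below it in the UCK2 shRNA libraries, so these entered through the group in which they were higher.

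LINC00152, also named CYTOR and raised in many tumours, was the most abundant member, at chr2:87455368-87606805 on the plus strand. It stood at 157.4 and 164.6 TPM in control replicates 1 and 2 against 112.8 and 110.8 TPM with UCK2 shRNA. As deposited, the replicates of each group nearly coincided and the groups lay well apart. After scaling the controls were at 132.7 and 164.1 TPM and the UCK2 shRNA libraries at 122.9 and 119.4 TPM, so the groups still did not overlap but the controls lay farther apart than the gap between groups. The log2 difference was -0.52 ± 0.15 (SE), with an unadjusted p of 0.00915 and an adjusted p of 0.294 by limma, and it was -0.28 after scaling (unadjusted p = 0.196). Of its 50-base words, 24.9% occur in other genes, most of them in MIR4435-2HG, a near copy of the gene, so its reads may have been split between the copies.

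The start of this gene is shown because the window of this most abundant member holds a 7-base motif at 2 places. The window gives 100 bases before the RefSeq start of CYTOR and 50 from it on, at chr2:87455327-87455476 (GRCh38.p14, plus strand), 5′ to 3′, with each TGAGTCA, the site of AP-1 factors, in capitals. The RefSeq start lies 59 bases from the deposited start.
LINC00152: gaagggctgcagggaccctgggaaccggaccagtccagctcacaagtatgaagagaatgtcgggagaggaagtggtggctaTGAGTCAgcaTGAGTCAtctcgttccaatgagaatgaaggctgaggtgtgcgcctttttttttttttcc

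Searched on both strands of the 300-base promoters, TGAGTCA was present in 12 of 100 LINC and 0 of 7 SNHG promoters, and in 4.95% of all promoters. The E-box CACGTG was present in 12 of 100 LINC promoters, 1 of 7 SNHG promoters and 7.26% of all, and TATAAA in 9 of 100, 2 of 7 and 11.5%. Some RefSeq starts lie far from the deposited start of the member. The distance is 44306 bases for LINC01002 and 7759 for LINC01001, which both hold TGAGTCA, and 28693737 for LINC00869, which does not. The shares therefore describe RefSeq starts, which need not be the starts used in these cells. These are letter matches, and no binding was measured.

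In 3 further abundant LINC genes the replicates lay close and the groups apart as deposited. LINC00511 measured 93.4 and 92.3 TPM in the controls against 76.4 and 68.5 TPM in the UCK2 shRNA libraries, a log2 difference of -0.36 (adjusted p = 0.338, limma; -0.12 after scaling). LINC00961 measured 25.2 and 25.6 TPM in the controls against 20.5 and 17.6 TPM in the UCK2 shRNA libraries, a difference of -0.40 (adjusted p = 0.372, limma; -0.17 after scaling). LINC00339 measured 21.1 and 21.2 TPM in the controls against 15.4 and 14.1 TPM in the UCK2 shRNA libraries, a difference of -0.50 (unadjusted p = 0.0406, adjusted p = 0.313, limma; -0.27 after scaling). In all 3, the controls nearly coincided and both UCK2 shRNA libraries lay below them. After scaling the groups overlapped for LINC00511 and LINC00961, and for LINC00339 they lay apart, at 17.8 and 21.2 TPM in control against 16.7 and 15.2 TPM. LINC00961 is now known to encode a small polypeptide (SPAAR) that acts on mTORC1 at the lysosome, and GENCODE 29 lists it as protein-coding.

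**Figure D3:**
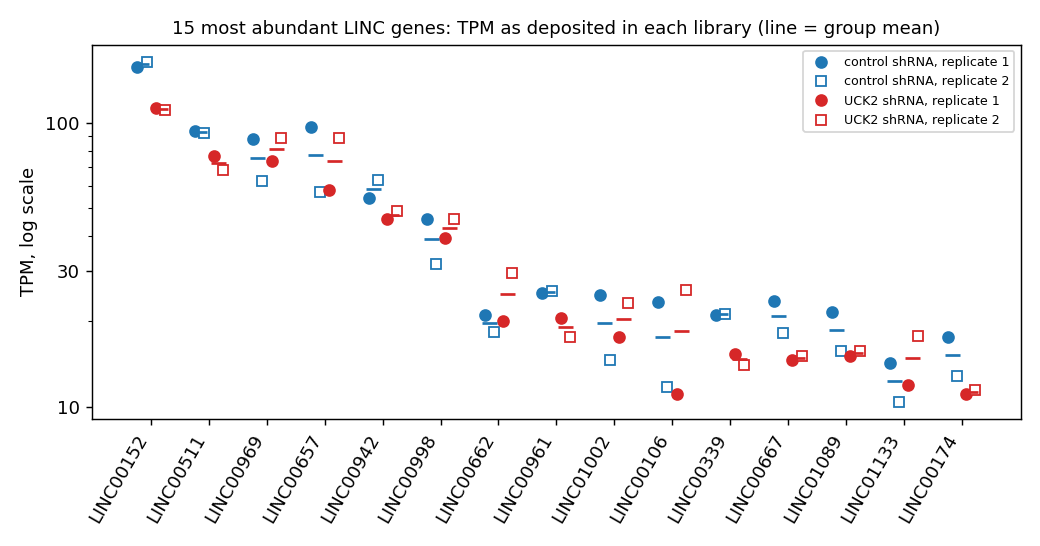
Deposited TPM (log axis) of the 15 most abundant LINC genes in each library, with control replicates in blue, UCK2 shRNA replicates in red and a line at each group mean. In LINC00152, LINC00511, LINC00961 and LINC00339 the replicates of a group lie together, and in LINC00657, LINC01002 and LINC00106 control replicate 1 and UCK2 shRNA replicate 2 lie above the other 2 libraries.

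A second group of abundant LINC genes split by library rather than by label. LINC00657 (NORAD), an RNA induced by DNA damage that binds PUMILIO proteins, measured 97.1 and 57.3 TPM in the controls against 58.1 and 88.8 TPM in the UCK2 shRNA libraries. LINC00106 measured 23.4 and 11.7 TPM in the controls against 11.1 and 25.8 TPM in the UCK2 shRNA libraries. LINC01002 measured 24.8 and 14.6 against 17.6 and 23.2 TPM. In each of the 3, control replicate 1 and UCK2 shRNA replicate 2 were high and the other 2 libraries low. The differences between group means were small beside this spread, at -0.053, 0.031 and 0.079 (adjusted p = 0.953, 0.982 and 0.925, limma), and 0.18, 0.26 and 0.31 after scaling.

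Of 4 others of the 15, the groups overlapped as deposited and lay apart after scaling. LINC00969 measured 88.0 and 62.4 TPM in the controls against 73.3 and 88.8 TPM in the UCK2 shRNA libraries, a difference of 0.12. LINC00998, which encodes the small membrane protein SMIM30 and is protein-coding in GENCODE 29, measured 46.0 and 31.8 against 39.5 and 45.8 TPM, a difference of 0.15. LINC01133 measured 14.3 and 10.4 against 11.9 and 17.8 TPM, a difference of 0.24. Control replicate 2 was the lowest library in all 3, and after scaling they came to 0.36, 0.38 and 0.46. LINC00662 measured 21.1 and 18.4 TPM in the controls against 20.1 and 29.6 TPM in the UCK2 shRNA libraries, a difference of 0.30 (0.53 after scaling) in which UCK2 shRNA replicate 2 alone was high as deposited. After scaling both UCK2 shRNA libraries lay above both controls in all 4 genes.

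The other 4 of the 15 measured lower. LINC00942 measured 54.2 and 62.9 TPM in the controls against 45.7 and 49.1 TPM in the UCK2 shRNA libraries, a difference of -0.30 (-0.060 after scaling). LINC00667 measured 23.6 and 18.2 against 14.63 and 15.03 TPM, a difference of -0.46 (-0.23 after scaling). LINC00174 measured 17.6 and 12.8 against 11.1 and 11.5 TPM, a difference of -0.38 (-0.16 after scaling), and LINC01089 21.6 and 15.8 against 15.1 and 15.7 TPM, a difference of -0.25 (-0.018 after scaling). In each the groups lay apart as deposited, though in LINC01089 they all but touched, and after scaling LINC00942 and LINC01089 overlapped. Of the 15, the UCK2 shRNA libraries lay wholly below the controls in 8 and wholly above in 0 as deposited, and in 4 and 4 after scaling. The shares over all genes were 44.4% and 5.46% as deposited (55.5% and 1.61% of genes of at least 5 TPM). After scaling they were 15.5% and 16% (18.4% and 11.6% of genes of at least 5 TPM).

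Libraries of the same group also differed over the whole LINC family. Taking each gene's distance from its own mean over the 4 libraries, after scaling, the LINC median was 0.0019 in control replicate 1, -0.096 in control replicate 2, -0.0100 in UCK2 shRNA replicate 1 and 0.12 in UCK2 shRNA replicate 2. As deposited, the lowest of the 4 libraries was control replicate 1 in 11 LINC genes, control replicate 2 in 53, UCK2 shRNA replicate 1 in 50 and UCK2 shRNA replicate 2 in 28, and after scaling in 34, 56, 33 and 19. Control replicate 2 was thus lowest in 37.3% of LINC genes as deposited, beside 30.1% of all genes. The deposited LINC median of -0.062 came to -0.23 without control replicate 2 and to 0.060 without control replicate 1, so its direction turned with 1 library. The median of all genes was -0.34 and -0.10 in the same 2 settings. The 2021 other noncoding genes had the same lowest and highest library, at -0.15 in control replicate 2 and 0.16 in UCK2 shRNA replicate 2. The median of the 9 SNHG genes stayed between -0.011 and 0.064 in every library, without that spread, although single hosts such as SNHG22 differed more between libraries.

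**Figure D4:**
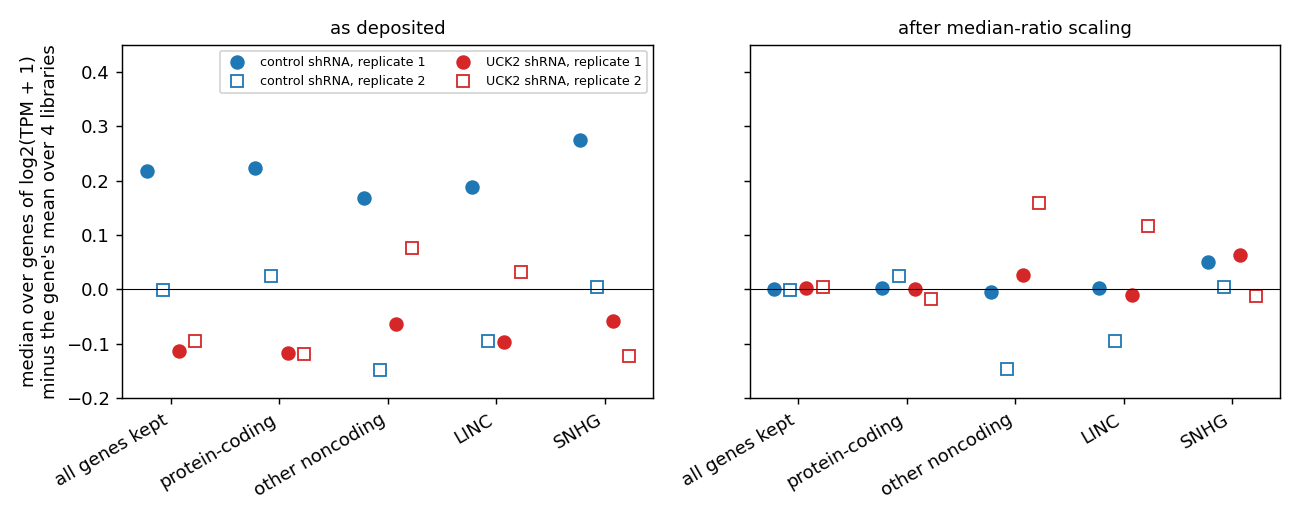
Median over genes of log2(TPM + 1) minus the gene's mean over the 4 libraries, for all genes, protein-coding, other noncoding, LINC and SNHG genes, as deposited and after median-ratio scaling; each point is 1 library. After scaling, the medians of LINC and other noncoding genes are lowest in control replicate 2 and highest in UCK2 shRNA replicate 2, and the SNHG median is near 0 in all 4.

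Replicates of single LINC genes could differ more than the groups did. In 12 LINC genes the 2 controls were at least 1 log2 unit apart, or 8.45% of the family beside 8.03% of all genes, and control replicate 1 was the higher in all 12. In the UCK2 shRNA group 6 LINC genes were that far apart, with replicate 2 higher in 5. LINC00894 measured 12.8 and 2.54 TPM in the controls, and LINC00342 measured 6.84 and 1.83 TPM. The number of libraries left wide intervals, and in 72 of the 142 LINC genes the 95% interval of the log2 difference was more than 2-fold wide each way.

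Among LINC genes with higher values, LINC00273 had the smallest p of all members. It lies at chr16:34158585-34160036 on the minus strand, and none of its 50-base words occurs in another gene of the annotation. It stood at 1.11 and 1.61 TPM in control replicates 1 and 2 against 4.76 and 7.32 TPM with UCK2 shRNA. Both UCK2 shRNA libraries lay well above both controls, and the mean was 4.43-fold higher in the UCK2 shRNA libraries. The log2 difference was 1.56 ± 0.32 (SE), with a 95% interval of 0.80 to 2.32, an unadjusted p of 0.00185 and an adjusted p of 0.294 by limma, and 1.72 after scaling (adjusted p = 0.206). With 1 library left out it ranged from 1.29 to 1.82, and it passed the adjusted threshold without control replicate 1 (adjusted p = 0.0396) and without control replicate 2 (adjusted p = 0.0458). Those fits called more of the whole table too, 242 genes higher and 108 lower without control replicate 1 and 32 higher and 21 lower without control replicate 2 (limma), and a control group of 1 library is assumed there to vary like the other.

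**Figure D5:**
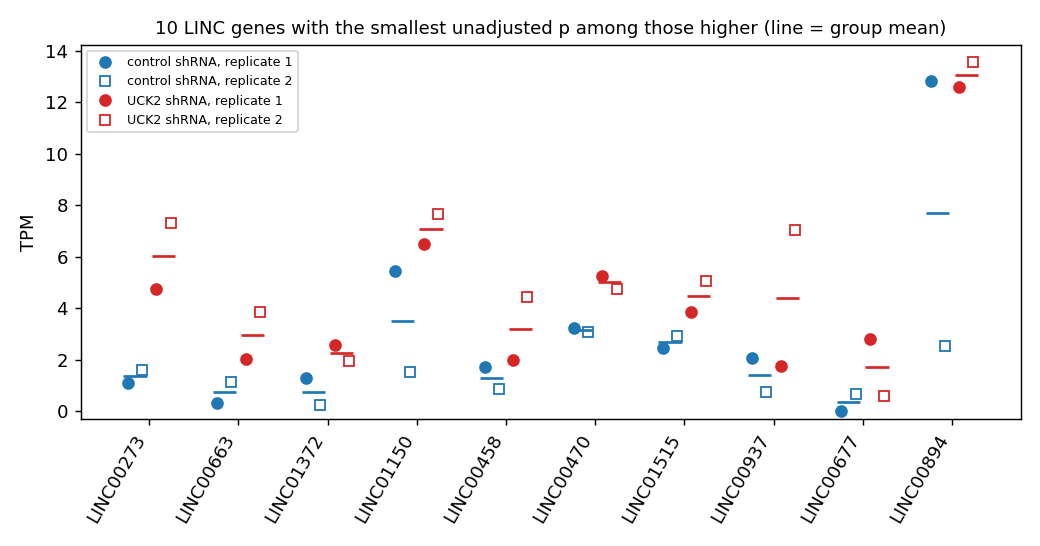
TPM in each library of the 10 LINC genes with the smallest unadjusted p among those with a log2 difference above 0. LINC00273 lies at 1.11 and 1.61 TPM in the controls against 4.76 and 7.32 TPM in the UCK2 shRNA libraries, and in LINC00894 control replicate 2 at 2.54 TPM lies apart from the other 3 libraries.

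The next 3 include LINC00663 and LINC01372, whose control means lay below the 1 TPM of the rule, so their differences are given as a description. LINC00663 measured 0.334 and 1.13 TPM in the controls against 2.04 and 3.85 TPM in the UCK2 shRNA libraries, a log2 difference of 1.19 (adjusted p = 0.294, limma). LINC01372 measured 1.30 and 0.221 TPM against 2.58 and 1.95 TPM, a difference of 0.96 (adjusted p = 0.323, limma). LINC01150 measured 5.45 and 1.53 TPM against 6.50 and 7.67 TPM, a difference of 1.00 (adjusted p = 0.341, limma). In all 3 the groups lay apart, while in LINC01372 and LINC01150 the controls differed by more than the higher control differed from the lower UCK2 shRNA library. Without control replicate 1, LINC01150 came to 1.67 with an adjusted p of 0.0184.

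LINC00458, an RNA described in embryonic stem cells, measured 1.73 and 0.845 TPM in the controls against 1.99 and 4.43 TPM in the UCK2 shRNA libraries, a difference of 0.84. LINC00470 measured 3.24 and 3.06 against 5.26 and 4.76 TPM, a difference of 0.53, and LINC01515 measured 2.45 and 2.91 against 3.87 and 5.08 TPM, a difference of 0.57. LINC00470 had close replicates in both groups. The adjusted p values of these 3 were 0.362, 0.382 and 0.384 (limma).

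The other 3 of the 10 overlapped between groups. LINC00894 measured 12.8, 12.6 and 13.6 TPM in control replicate 1 and the UCK2 shRNA replicates, and 2.54 TPM in control replicate 2. Its difference of 1.01 (adjusted p = 0.425, limma) rested on which control was used: it was 1.99 without control replicate 1 (adjusted p = 0.00218) and 0.023 without control replicate 2. LINC00937 measured 2.06 and 0.741 TPM in the controls against 1.76 and 7.03 TPM in the UCK2 shRNA libraries, with UCK2 shRNA replicate 2 alone high. LINC00677 was listed at 0 TPM in control replicate 1 and measured 0.679 TPM in control replicate 2, 2.81 TPM in UCK2 shRNA replicate 1 and 0.584 TPM in UCK2 shRNA replicate 2. LINC00894 shares 22.9% of its 50-base words with other genes, and LINC00893, with which it shares most of them, measured 8.89 and 6.18 TPM in the controls against 7.99 and 11.6 TPM in the UCK2 shRNA libraries.

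Among LINC genes with lower values, the 5 not yet described were scarcer. LINC00866 measured 1.92 and 2.92 TPM in the controls against 1.04 and 1.14 TPM in the UCK2 shRNA libraries, and its difference of -0.70 was the lowest of the family. LINC00460, an RNA raised in several carcinomas, measured 6.66 and 9.52 against 5.09 and 5.23 TPM, a difference of -0.54. LINC01023 measured 9.49 and 5.35 against 4.63 and 4.14 TPM, a difference of -0.60. The groups lay apart in each, with 1 control clearly above the other.
LINC01063 measured 9.13 and 13.8 TPM in the controls against 8.24 and 7.18 TPM in the UCK2 shRNA libraries, a difference of -0.49, and LINC01117 measured 3.56 and 4.202 against 2.24 and 2.56 TPM, a difference of -0.52. The adjusted p values of these 5 lay between 0.354 and 0.415 (limma). In range, the LINC differences ran from -0.70 to 1.56, and 4 genes reached 1 or more while 0 reached -1 or less.

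Neighbouring members gave like values at 2 places. LINC00667 and LINC00526 overlap on opposite strands and differed by -0.46 and -0.53, and LINC01116 and LINC01117, also overlapping on opposite strands, by -0.40 and -0.52. The 2 genes of each pair may share reads where strand was not used in counting. Sequence shared with other genes was common in the family: 41 of the 151 members share over 10% of their 50-base words, 9 share over 50%, and 50 share none. LINC01123 and LINC01106 share 92.2% and 89.2% of theirs, most of them with each other, and measured 0.786 to 2.07 TPM and 0.971 to 1.45 TPM over the 4 libraries. LINC00261, an endodermal RNA beside FOXA2, shares 85.4% of its words, nearly all with an overlapping gene, and measured 1.33 and 0.774 TPM in the controls against 0.895 and 1.04 TPM in the UCK2 shRNA libraries, with overlapping groups. The values of such members are uncertain in that reads could have been divided among copies.

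The noncoding status of the members is that of the deposited table. Of the 147 members whose identifier occurs in GENCODE 29, 4 are protein-coding there: LINC00998 (SMIM30), LINC00961 (SPAAR), LINC00094 (BRD3OS) and LINC01125 (C2orf92). LINC00094 measured 10.6 and 10.7 TPM in the controls against 9.35 and 11.9 TPM in the UCK2 shRNA libraries, and LINC01125 measured 6.52 and 3.96 against 5.44 and 4.75 TPM. The groups overlapped in both, with differences of -0.015 and -0.0044.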

How the data were processed

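Values were TPM per gene, made and deposited by the authors in 1 table of 4 libraries with hg38 positions. TopHat2 2.0.14, HTSeq, DESeq, edgeR and hg38 are listed, without roles, per the submitters' processing notes, which give no formula for TPM. Depth is unknown, since TPM does not keep it, and counting error could not be computed. Libraries were grouped by title. Genes with a mean of at least 1 TPM were kept (14038) and compared on log2(TPM + 1), which understates changes of scarce genes, with limma 3.58.1 in R 4.3.3 (lmFit, eBayes with trend, two-sided, Benjamini-Hochberg over all genes kept, threshold 0.05); the script was tested on simulated data. Median-ratio scaling used factors of 1.19 and 1.00 for control replicates 1 and 2 and 0.918 and 0.928 for UCK2 shRNA replicates 1 and 2. Identifiers were matched to GENCODE 29 (147 of 151 members), and 50-base words of exons were compared with all its other transcripts on either strand.

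The members and lists were chosen with earlier results of these data known. Named were every SNHG member, the 15 most abundant LINC members and the 10 LINC members of smallest unadjusted p in each direction. Also named were members at 0 TPM in both libraries of a group (0 found), the 3 names on each side of the threshold and UCK2. Coding neighbours within 2000 bases or overlapping were named only for SNHG9, SNHG10, SNHG19 and SNHG22, and not all of them. Other named members overlap coding genes too, among them SNHG7 (FAM69B), LINC01089 (RHOF) and LINC00894 (CXorf40B), and reads may be shared there. Lists give their 2 most abundant genes, except 1 gene that is not reported here. Other members were named after their values were seen, for shared sequence, neighbourhood, replicate gap or annotation. Blood markers (CD68 most) summed to 44.6 to 55.0 TPM, and fibroblast and endothelial markers (PECAM1 most) to 21.8 to 26.4 TPM. Hepatocyte or hepatoma markers summed to 2408 to 4246 TPM, mostly from KRT8 (1792 to 3114 TPM) and KRT18 (461 to 913 TPM). Alternatives were other pseudocounts, filters, scalings and variance models, a replicate block and leaving out each library.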

Additional observations from a re-analysis of the deposited data

How the results depend on the processing

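With 2 libraries a group and no depth, the precision rests on the spread between libraries. The number of members past the adjusted threshold was 0 under every setting tried except with 1 library left out, where it ran from 0 to 3 (3 without control replicate 1: LINC00273, LINC01150 and LINC00894; 1 without control replicate 2: LINC00273), and with the crossed pairing. Members lower at an unadjusted p under 0.05, 3 as reported, numbered 0 with median-ratio scaling, with quantile normalization and when rescaled without the 50 most abundant genes, 7 without a filter on low values, and 1 to 9 with 1 library left out. Members higher, 4 as reported, numbered 11, 9 and 9 under those 3 scalings, 2 without a filter, 0 with a mean of at least 5 TPM, 7 with the replicate block, and 2 to 16 with 1 library left out. The SNHG median was -0.10, -0.087 and -0.0074 under the 3 scalings and -0.40 to -0.19 with 1 library left out. The LINC median turned to 0.10 with median-ratio scaling and 0.20 when rescaled without the 50 most abundant genes, was -0.053 with quantile normalization (all genes -0.0062, 0.091 and -0.029), and ran from -0.23 to 0.060 with 1 library left out. The cause of these shifts was not tested.

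Direction turned with median-ratio scaling in SNHG12 (0.14) and LINC00657 (0.18). With quantile normalization it turned in SNHG8 (0.14), SNHG7 (0.011), SNHG12 (0.12), LINC00511 (0.028), LINC00657 (0.29), LINC00942 (0.052) and UCK2 (0.059). When rescaled without the 50 most abundant genes it turned in SNHG8 (0.094), SNHG7 (0.086), SNHG12 (0.24), LINC00657 (0.29), LINC00942 (0.046), LINC01089 (0.084) and UCK2 (0.030). With 1 library left out, SNHG12 ran from -0.35 to 0.16, LINC00969 from -0.12 to 0.37, LINC00657 from -0.43 to 0.32, LINC00998 from -0.11 to 0.41, LINC01002 from -0.29 to 0.44, LINC00106 from -0.55 to 0.61, LINC01133 from -0.035 to 0.51 and UCK2 from -0.72 to 0.096. A group left with 1 library was assumed to vary like the other.

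Deviations of same-numbered libraries correlated at -0.21 over genes. Whether libraries of the same number were handled together cannot be read from that value. With the replicate block, 0 members and, over all genes, 29 higher and 10 lower passed the adjusted threshold. The crossed pairing, chosen after seeing the data, gave 3 members and 91 higher and 636 lower genes, and 9 members higher at an unadjusted p under 0.05.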
